A study of Mus musculus with 4 samples.

Results

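Cxcl9, Cxcl10 and Cxcl11 are the genes of the 3 interferon-induced chemokines that share the receptor CXCR3. They were taken by gene symbol from a table of 54532 genes, where all 3 were found, and their read counts were followed through 4 RNA sequencing libraries of mouse bone marrow-derived macrophages. The proteins belong to the CXC chemokines that lack the ELR motif of the neutrophil attractants. They draw activated T cells and natural killer cells into inflamed tissue. In macrophages, lipopolysaccharide (LPS) is sensed by Toll-like receptor 4, which activates NF-κB and, through IRF3, the production of interferon β. Interferon β then acts back on the cells through its receptor and Janus kinases. Cxcl10 and Cxcl11 respond to NF-κB and to type I and type II interferon, whereas Cxcl9 is best known as a target of interferon γ.

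The libraries were titled WT, KO, WT_LPS3 and KO_LPS3, with 1 library per group. Per the series' design text, WT stood for FBXW7f/f mice and KO for LysM-cre FBXW7f/f mice. All mice were of the C57BL/6 strain and 6 to 8 weeks old. Marrow of femur and tibia was grown for 6 days with 20% L929-conditioned medium, which supplies macrophage growth factor, and 10% serum. The first pair of libraries was from untreated cells and the second pair from cells given LPS for 3 h. All 4 groups carried the floxed Fbxw7 alleles. Fbxw7 encodes a substrate-recognition subunit of an SCF ubiquitin ligase, and LysM-cre expresses Cre from the lysozyme 2 locus in myeloid cells. Neither the LPS dose nor the number of mice behind a library is stated in the labels.

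The libraries held 17610372 to 23835940 counts, so that 3 counts, the floor set in place of 0 counts, stood for 0.108 to 0.184 CPM (counts scaled to library size). Fbxw7 itself had 395 counts in the library titled WT, 477 in KO, 170 in WT_LPS3 and 191 in KO_LPS3. Scaled to library size, KO over WT was 0.963 (0.841 to 1.10) untreated and 1.18 (0.955 to 1.46) with LPS, intervals that include no difference, and a count over the whole gene does not show whether the floxed part was lost. The genotype fields of the labels named FBXW7f/f for both untreated libraries and LysM-cre FBXW7f/f for both LPS libraries, which goes against the titles. Lyz1, the neighbour of the lysozyme 2 locus that carries the Cre, had 63, 910, 569 and 43 counts in the same order, so that KO stood near WT_LPS3 and WT near KO_LPS3. Lyz2, the gene of that locus, stood at 15253, 8711, 9917 and 18238 CPM, lower in KO and WT_LPS3 than in WT and KO_LPS3. Comparisons between titles below are therefore comparisons between libraries labelled WT and KO. Summed over 6 macrophage markers, the level was 5910, 6150, 7283 and 7077 CPM.

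The 3 genes lie side by side on chromosome 5 of GRCm38, all on the minus strand. Cxcl9 (ENSMUSG00000029417) occupies chr5:92321347-92328079, Cxcl10 (ENSMUSG00000034855) chr5:92346638-92348889 and Cxcl11 (ENSMUSG00000060183) chr5:92359544-92365485. The cluster spans 44.1 kb, with 18.6 kb between Cxcl9 and Cxcl10 and 10.7 kb between Cxcl10 and Cxcl11. The promoters of Cxcl9 and Cxcl10 are printed because the genes differ in how their levels changed between the libraries. Each is the 250 bases before the RefSeq transcription start on GRCm38.p6, read 5′ to 3′ on the minus strand, with matches to the searched motifs in capitals. Cxcl9 is chr5:92328080-92328329 and Cxcl10 is chr5:92348890-92349139.
Cxcl9 promoter: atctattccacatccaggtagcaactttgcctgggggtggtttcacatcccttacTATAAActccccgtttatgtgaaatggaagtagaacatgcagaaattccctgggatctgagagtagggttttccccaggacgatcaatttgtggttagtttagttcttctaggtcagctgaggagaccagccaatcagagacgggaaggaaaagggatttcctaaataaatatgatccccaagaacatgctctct
Cxcl10 promoter: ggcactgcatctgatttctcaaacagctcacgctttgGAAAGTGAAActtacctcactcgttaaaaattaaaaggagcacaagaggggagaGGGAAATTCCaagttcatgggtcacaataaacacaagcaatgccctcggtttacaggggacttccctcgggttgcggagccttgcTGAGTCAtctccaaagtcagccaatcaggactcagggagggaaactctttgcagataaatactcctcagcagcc

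The Cxcl10 stretch held an interferon-stimulated response element core (GAAA, any 2 bases, GAAA) at -213 to -204 from the start, a κB match (GGGA, any 2 bases, TTCC) at -159 to -150 and an AP-1 match (TGANTCA) at -74 to -68. Both strands were searched, and no matches overlapped. Of 32851 RefSeq promoters of the same window, 2.98% held the response element letters, 1.21% the κB letters and 6.75% the AP-1 letters. The Cxcl9 stretch held the TATA box letters (TATAAA), found in 12.4% of promoters, at -195 to -190, and none of the other letters searched. The gamma-activated site letters (TTCNNNGAA), held by 7.02% of promoters, were in neither stretch. These matches describe exact letters in a short window and show no binding. Variants of the letters were not searched, so an unmarked stretch does not show that an element is absent. Cxcl11 was the member of the 3 without a promoter in the RefSeq table.

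Cxcl11 differs from the other members in its annotation. GENCODE M21 lists Cxcl9 and Cxcl10 as protein coding and Cxcl11 as a polymorphic pseudogene, since the C57BL/6 allele, the strain of these mice, is known for a frameshift. A count of its reads is thus a count of transcripts, not of a working chemokine. The 2 models of the gene differ in the first coding exon, which is why it is printed. Both begin the coding sequence in chr5:92363155-92363214 on the minus strand, and Cxcl11-201 leaves out 2 bases as a gap between its exons. The capitals mark those bases.
Cxcl11-202: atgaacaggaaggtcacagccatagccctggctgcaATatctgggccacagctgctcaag
Cxcl11-201: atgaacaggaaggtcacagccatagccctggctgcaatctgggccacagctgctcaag

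Without LPS the 3 genes were close to silent or low. Cxcl10 had 169 counts in WT and 188 in KO, which is 7.66 CPM (95% Poisson interval 6.55 to 8.91) and 6.80 CPM (5.86 to 7.84). Cxcl9 had 6 counts in WT, 0.272 CPM (0.0999 to 0.592), and 0 counts in KO, with an interval up to 0.133 CPM. Cxcl11 had 2 counts in each, 0.0907 CPM in WT (0.0110 to 0.328) and 0.0723 CPM in KO (0.00876 to 0.261). The intervals cover counting error only. Both untreated libraries held Cxcl10 above the floor of 3 counts and Cxcl11 below it, and Cxcl9 passed it in WT alone.

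With LPS all 3 genes were far higher, and Cxcl10 was among the most abundant transcripts of the cells. Cxcl10 had 74664 counts in WT_LPS3, 4348 CPM (4316 to 4379), and 94734 in KO_LPS3, 5797 CPM (5760 to 5834). It took 0.356% of all counts (Wilson interval 0.354 to 0.359) in the first and 0.487% (0.484 to 0.490) in the second, where it ranked 22 and 15 among all genes by count. Without LPS its ranks were 8968 in WT and 9242 in KO. Cxcl9 had 994 counts in WT_LPS3, 57.9 CPM (54.3 to 61.6), and 4429 in KO_LPS3, 271 CPM (263 to 279). Cxcl11 had 2416 counts in WT_LPS3, 141 CPM (135 to 146), and 2242 in KO_LPS3, 137 CPM (132 to 143). For each member both LPS libraries stood above both untreated libraries. The share of all genes that do so was not counted, so this separation is a description only. Between the LPS libraries, the counting intervals of Cxcl11 overlapped while those of Cxcl9 and Cxcl10 did not. In bulk RNA, fewer cells with a transcript and less of it per cell cannot be told apart.

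**Figure D1:**
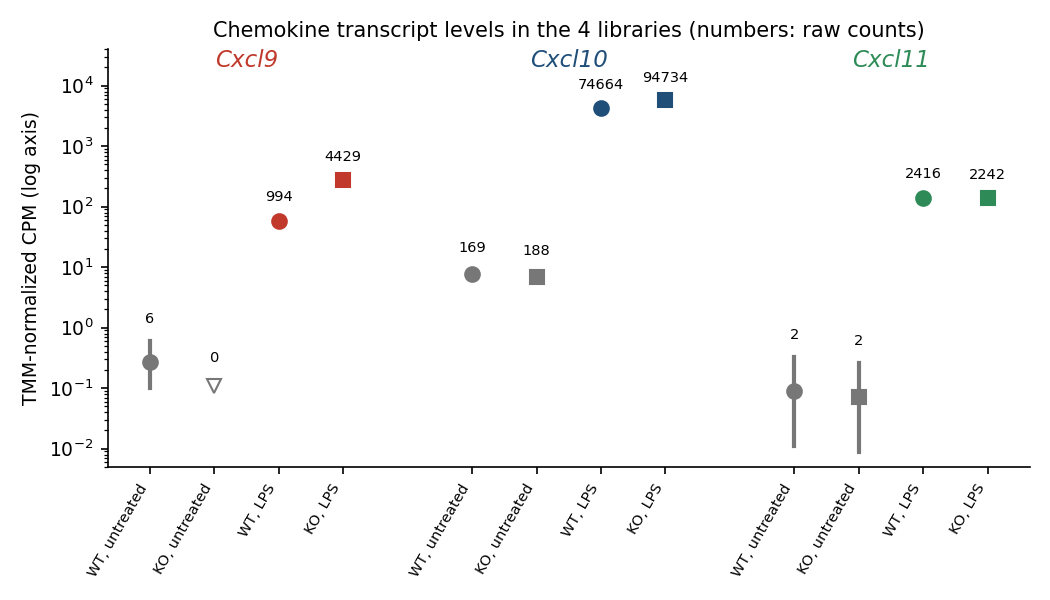
Level of Cxcl9, Cxcl10 and Cxcl11 in CPM (log axis) in each of the 4 libraries, 1 symbol per library with its raw count above it, bars for the 95% Poisson interval of the count, and an open triangle at the floor of 3 counts for the library at 0. Cxcl10 goes from 7.66 and 6.80 CPM without LPS to 4348 and 5797 with it, Cxcl9 separates the LPS libraries (57.9 and 271 CPM), and Cxcl11 is alike in both (141 and 137).

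Across WT-titled libraries, LPS against untreated gave a ratio of 1551 for Cxcl11 (95% interval 429 to 12814), 567 for Cxcl10 (488 to 664) and 213 for Cxcl9 (97.4 to 581). Across KO-titled libraries it was 1897 for Cxcl11 (525 to 15674) and 853 for Cxcl10 (739 to 989). Cxcl9, at 0 counts before LPS, gave 2498 with 3 counts set in place of 0, and its exact interval began at 2031. To be called, a gene needed 1 CPM or more on average over the 4 libraries, a ratio of 2 or more with a prior count of 2, and an exact interval of the ratio that left out no change. All 3 members were called higher with LPS in both titles, against a background of 15.4% of 12326 genes in WT and 14.6% in KO, where 15% and 17.8% were lower. Cxcl9 and Cxcl11 reached the mean of 1 CPM through their LPS libraries, so a call for them follows from the filter, while Cxcl10 passed it in each library. By size of the log2 ratio, Cxcl11, Cxcl10 and Cxcl9 ranked 1, 3 and 24 among those genes in WT, and Cxcl9, Cxcl10 and Cxcl11 ranked 1, 3 and 4 in KO.

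**Figure D2:**
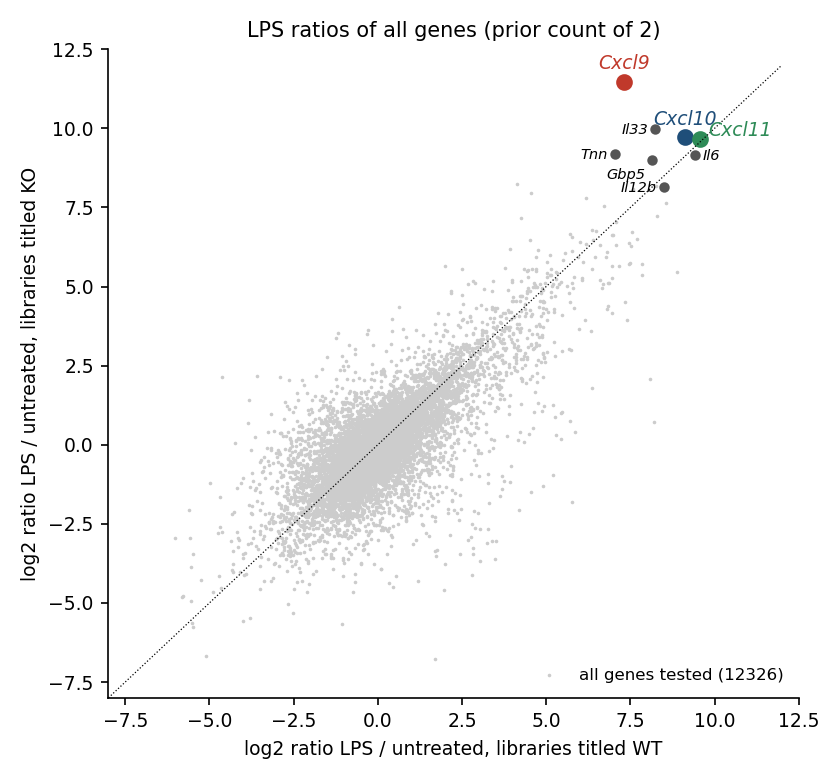
Log2 ratio of LPS to untreated (prior count 2) in the WT-titled pair (x axis) against the KO-titled pair (y axis), 1 point per gene averaging 1 CPM or more, members and the genes of most similar profile labelled and a dotted line for equal ratios. Cxcl10 and Cxcl11 lie near the line at 9.13 and 9.72, and 9.56 and 9.67, and Cxcl9 lies above it at 7.30 and 11.46.

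The LPS effect common to the 4 libraries was tested with edgeR's quasi-likelihood test, in a model with treatment and title that left 1 residual degree of freedom. Cxcl11 rose by 10.68 ± 0.35 on the log2 scale (SE, Benjamini-Hochberg adjusted p = 0.00438). Cxcl10 rose by 9.48 ± 0.57 (edgeR, adjusted p = 0.00458). Cxcl9 rose by 10.08 ± 1.20 (edgeR, adjusted p = 0.0112), with the widest error of the 3. Cxcl9 and Cxcl11 passed the filter of this test, too, through their LPS libraries, so their p-values carry the limit given above. Of 13989 genes tested, 9.35% rose and 5.14% fell. The authors' deposited table listed log2 fold changes with LPS of 7.73, 9.17 and 10.53 for Cxcl9, Cxcl10 and Cxcl11 in WT, and 15.54, 9.73 and 10.78 in KO. Because the genotype fields go against the titles and the Lyz1 counts pair the libraries across them, the ratios were also taken across titles. KO_LPS3 over WT gave 996 for Cxcl9 (457 to 2715), 756 for Cxcl10 (650 to 885) and 1512 for Cxcl11 (418 to 12496). WT_LPS3 over KO gave 640 for Cxcl10 (554 to 742) and 1945 for Cxcl11 (538 to 16073). For Cxcl9 it gave 534 with 3 counts set in place of 0, and the exact interval began at 433. Whichever untreated library was used, no member's ratio was under the 213 of Cxcl9.

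Cxcl9 was the member that separated the titles. With LPS it was 4.68 times higher in KO_LPS3 than in WT_LPS3 (4.37 to 5.02), rank 40 of 12326 genes by the log2 ratio, where 3.42% of genes were called higher and 4.81% lower. Cxcl10 was 1.33 times higher (1.32 to 1.35), beyond counting error but under the 2-fold rule, at rank 1841. For Cxcl11 the ratio was 0.975 (0.920 to 1.03), an interval that includes no difference. The order of the LPS libraries was thus KO above WT for Cxcl9 and Cxcl10 and not separable for Cxcl11. With 1 library per group these ratios have no replicate check. The authors' deposited table listed a log2 fold change of 2.25 for Cxcl9 (adjusted p = 8.03e-05), 0.44 for Cxcl10 (adjusted p = 1) and -0.02 for Cxcl11 (adjusted p = 1), tests that compare these libraries and not the genotypes.

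Without LPS the direction for Cxcl9 was the other way. It had 6 counts in WT and 0 in KO and was called lower, as were 2.03% of genes, with 3.16% higher. With 3 counts set in place of 0 it was 2.51-fold lower, and the exact interval began at 1.48-fold. The call rests on 6 reads. Cxcl10 in KO was 0.887 times its level in WT (0.717 to 1.10), an interval that includes no difference. For Cxcl11, at 2 counts in each, no ratio was taken. The LPS response of Cxcl9, on the log2 scale, was larger by 4.16 (2.16 to 6.16, counting error only) in the KO-titled than in the WT-titled pair. For Cxcl10 the difference of responses was 0.59 (0.29 to 0.88), and for Cxcl11 0.11 (-1.80 to 2.03). These differences rest on the pairing of libraries by title. With each LPS library set against the untreated library of the other title, an alternative added after the data were seen, the difference was 0.29 for Cxcl9 (-1.71 to 2.29), 0.24 for Cxcl10 (-0.05 to 0.54) and -0.19 for Cxcl11 (-2.10 to 1.73), and all 3 intervals include 0. For Cxcl9 by title, the value also moved with the treatment of low counts, to 2.32 with FPKM and a pseudocount of 1 and to 5.85 with a prior count of 0.5.

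**Figure D3:**
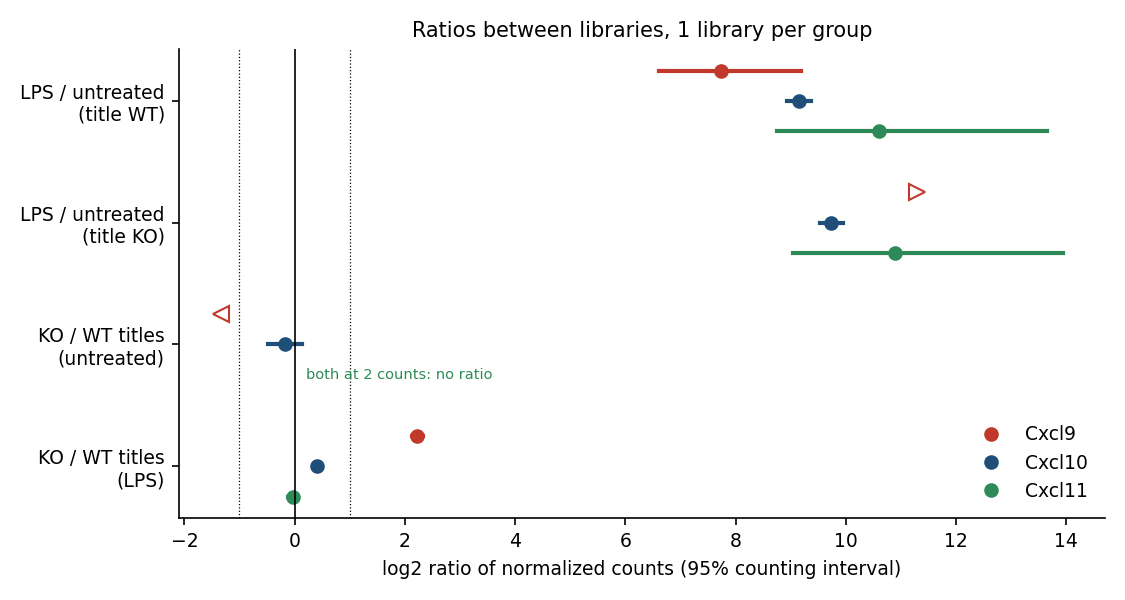
Log2 ratios of the CPM of Cxcl9, Cxcl10 and Cxcl11 (x axis, bars for 95% counting intervals) for LPS over untreated within each title and KO over WT within each treatment. Open triangles mark bounds where a library had 0 counts, and dotted lines mark 2-fold. With LPS, KO over WT is past the 2-fold line for Cxcl9, above 0 and short of that line for Cxcl10, and at -0.04 for Cxcl11.

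In the model of all 4 libraries the title had no effect that passed the test on any member. A title difference that changes with treatment counts as error in this model, so the result does not show that the titles are alike. The KO over WT log2 effect was 1.50 ± 1.01 for Cxcl9 (edgeR, adjusted p = 1), 0.12 ± 0.40 for Cxcl10 (adjusted p = 1) and -0.06 ± 0.27 for Cxcl11 (adjusted p = 1). The value for Cxcl9 combines opposite directions, and its sign turned to -1.41 with DESeq2 (adjusted p = 1.00). Over the 13989 genes edgeR called 0 at the adjusted threshold, with 39 at an unadjusted p under 0.05, and DESeq2 and limma-voom also called 0, with 30 and 62.

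Levels were compared between the genes per length, with the authors' FPKM, which uses the summed exon length of each gene. In WT_LPS3 the FPKM was 1938 for Cxcl10, 37.2 for Cxcl11 and 19.3 for Cxcl9. In KO_LPS3 it was 2643 for Cxcl10, 92.3 for Cxcl9 and 37.1 for Cxcl11. Cxcl10 was first in both, at 101 times Cxcl9 (94.5 to 107) in WT_LPS3 and 28.6 times (27.8 to 29.5) in KO_LPS3. Cxcl9 and Cxcl11 changed places. In WT_LPS3 Cxcl11 was 1.93 times the FPKM of Cxcl9 (1.79 to 2.08), whereas in KO_LPS3 Cxcl9 was 2.49 times that of Cxcl11 (2.36 to 2.62). Untreated, the FPKM of Cxcl10 was 3.33 in WT and 2.91 in KO, and Cxcl9 and Cxcl11 stayed under 0.1 in both.

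The length of Cxcl11 weighs on that comparison. Its deposited length of 3794 bases is that of Cxcl11-202, whose first exon of 2331 bases begins 2208 bases before the start of Cxcl11-201, a model of 1581 bases. With the length of each gene's first listed transcript (2889, 1094 and 1581 bases), an alternative added after the data were seen, Cxcl11 was 4.44 times Cxcl9 (4.12 to 4.79) in WT_LPS3 and Cxcl9 1.08 times Cxcl11 (1.03 to 1.14) in KO_LPS3. Cxcl10 remained first by 44.7 and 61.1 times Cxcl11 in the LPS libraries and by 198 and 56.5 times Cxcl9. Art3, an ADP-ribosyltransferase gene on the opposite strand, spans Cxcl10 and Cxcl11 and shares 133 of the 2252 exon bases of Cxcl10. Its 3, 2, 10 and 13 counts are small beside those of Cxcl10. The processed pseudogene Gm2673 overlaps 1582 exon bases of Cxcl11 and had 0 counts in the 4 libraries. How the authors assigned reads in such overlaps is not stated in the labels.

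The genes that flank the cluster had far smaller LPS ratios. Naaa, an acid amidase gene, went from 20.5 CPM in WT and 25.1 in KO to 88.3 in WT_LPS3 and 53.7 in KO_LPS3, which is 4.30 times in WT and 2.14 times in KO. Sdad1, a gene of ribosome biogenesis, was 2.15 and 1.92 times higher with LPS. The nuclear pore gene Nup54 gave 1.82 and 1.33, and the lysosomal membrane gene Scarb2 0.700 and 0.765. The smallest member ratio, 213 for Cxcl9, was many times the highest of these.

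**Figure D4:**
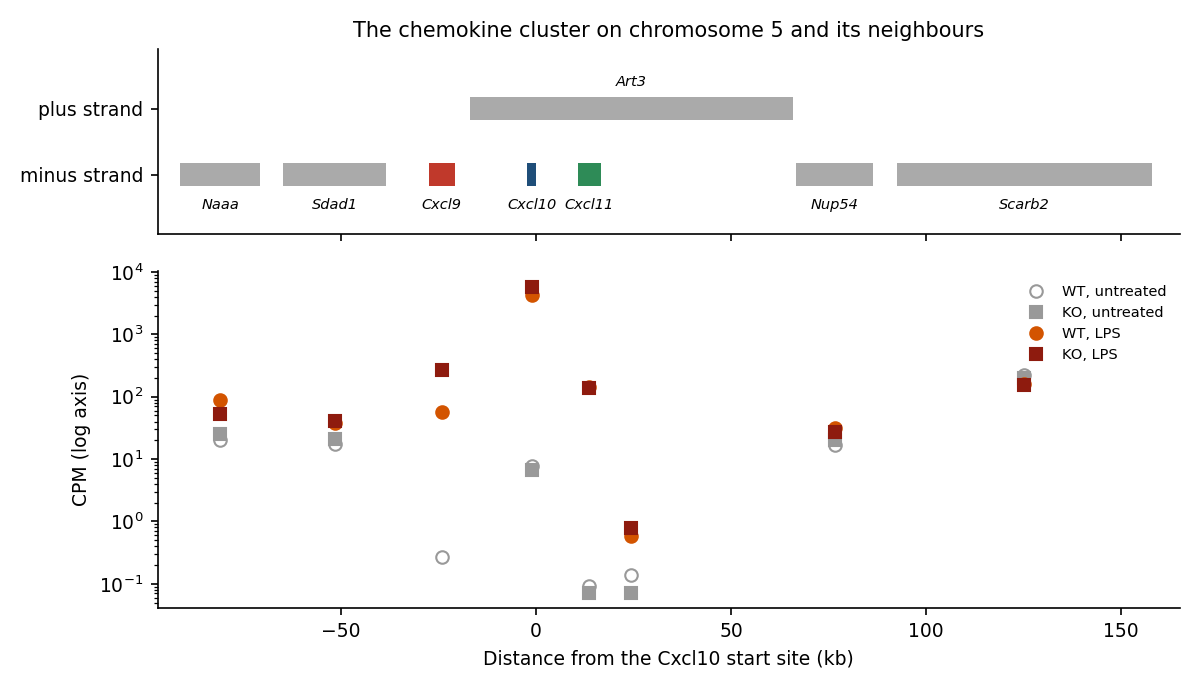
Gene spans of the Cxcl9 to Cxcl11 cluster and its nearest protein-coding neighbours, drawn to scale by strand against distance in kb from the Cxcl10 start site (top), and their CPM (log axis) in the 4 libraries at each gene's midpoint (bottom; Cxcl9 in KO without LPS, at 0 counts, is not drawn). The LPS symbols of the 3 chemokines stand far above the untreated ones, whereas those of Nup54 and Scarb2 nearly coincide with them.

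The ligands that act upstream were read from the interferon genes. Ifnb1, which encodes interferon β, had 1 count in WT and 8 in KO without LPS, and 908 and 1257 with it, 52.9 and 76.9 CPM. It rose by 8.60 ± 0.47 on the log2 scale (edgeR, adjusted p = 0.00438). Ifnb1 passed the filter of this test through its LPS libraries, so its p-value carries the limit given for Cxcl9 and Cxcl11. Between the LPS libraries it was 1.45 times higher in KO_LPS3 (1.33 to 1.59). Ifna5, an interferon α gene, had 1, 0, 8 and 77 counts and was 10.1 times higher in KO_LPS3 (4.88 to 24.3), although such genes have near-identical copies whose reads are hard to assign. Ifnb1 and Ifna5 were the members of this list of 10 with a mean of at least 1 CPM. Ifng, the gene of interferon γ, had 0, 1, 2 and 0 counts.

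Among receptors and kinases, Jak2 was the gene that passed the test. Of the 7 genes of the interferon receptors and Janus kinases, 1 rose in the model of 4 libraries and 0 fell, near the 9.35% and 5.14% of all genes. Jak2, a kinase of the interferon γ receptor, stood at 40.7, 41.9, 720 and 546 CPM and rose by 3.96 ± 0.29 (edgeR, adjusted p = 0.00538). Jak1 was 1.30 and 1.59 times its untreated level with LPS in WT and KO. The interferon α receptor gene Ifnar1 was 2.19 and 1.14 times, and the interferon γ receptor gene Ifngr1 0.602 and 0.493 times. In KO, Jak2 was the gene of the list called higher and Ifngr1 the gene called lower. The list's median log2 ratio with LPS was 0.39 in WT and 0.19 in KO, beside -0.01 and -0.07 over all genes.

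Of 11 transcription factors of interferon and NF-κB signalling, 7 rose and 0 fell, beside 9.35% and 5.14% of all genes. The median log2 ratio was 1.79 in WT and 1.60 in KO. Irf1, which drives many interferon γ targets, stood at 63.1, 71.7, 853 and 891 CPM and rose by 3.73 ± 0.29 (edgeR, adjusted p = 0.00597). Nfkb1, a subunit of NF-κB, rose by 3.05 ± 0.28 (edgeR, adjusted p = 0.00701). Irf5 rose by 1.42 ± 0.28 (edgeR, adjusted p = 0.0344). Irf7, a factor of interferon α induction, was at 136 and 606 CPM untreated and 1252 and 800 with LPS, and its change of 1.83 ± 0.76 did not pass (edgeR, adjusted p = 0.169). Irf8 was singled out after its values were seen. This myeloid factor was at 285 CPM in WT_LPS3 and 818 in KO_LPS3, 2.87 times higher (2.78 to 2.97). Irf8 was the gene of the list whose ratio between the LPS libraries exceeded that of Cxcl10, and no gene of the list exceeded that of Cxcl9.

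Inhibitors of the same pathways rose with the chemokines. Of 7 genes, 6 rose and 0 fell, beside 9.35% and 5.14% of all genes, and the median log2 ratio was 3.46 in WT and 3.18 in KO. Socs3, which blocks cytokine receptor signalling, rose by 7.12 ± 0.35 (edgeR, adjusted p = 0.00438). Tnfaip3, which encodes A20, was at 22.0, 32.5, 1482 and 1258 CPM, and Nfkbia, which encodes the NF-κB inhibitor IκBα, at 73.0, 74.0, 805 and 673 CPM. Usp18, which restrains the interferon α receptor, was at 55.8, 73.7, 597 and 648 CPM. Between the titles with LPS, 0 of the 7 were called, which is near the 3.42% called higher and 4.81% called lower over all genes.

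The interferon-stimulated effectors are, like the chemokines, targets of interferon signalling. Of 15 genes tested, 14 rose and 0 fell, beside 9.35% and 5.14% of all genes, and the median log2 ratio with LPS was 5.02 in WT and 5.12 in KO. Rsad2, which encodes the antiviral protein viperin, stood at 128, 195, 12389 and 15671 CPM and rose by 6.49 ± 0.60. Ifit2, Cmpk2 and Ifit1, all antiviral interferon targets, rose by 4.92 ± 0.50, 6.31 ± 0.49 and 5.85 ± 0.48 (edgeR, adjusted p from 0.00597 to 0.00821). No effector had a larger LPS ratio than Cxcl10 in either title, and Gbp5, a guanylate-binding protein gene, was the effector above Cxcl9 in WT. Between the LPS libraries, the ratio of KO over WT ran from 0.315 for Ciita to 1.53 for Ifit1 with a median of 1.26. Cxcl10, at 1.33, stood inside that range with 6 effectors above it, while Cxcl9, at 4.68, was above all 15. Ciita, the master regulator of MHC class II genes and a known interferon γ target, went against the list, at 67, 118, 30 and 9 counts. Between the LPS libraries, 0 effectors were called higher in KO_LPS3 and 2 lower, beside 3.42% and 4.81% of all genes. The 2 were Ciita and Nos2, and Nos2 was 0.483 times as high in KO_LPS3 (0.450 to 0.518).

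**Figure D5:**
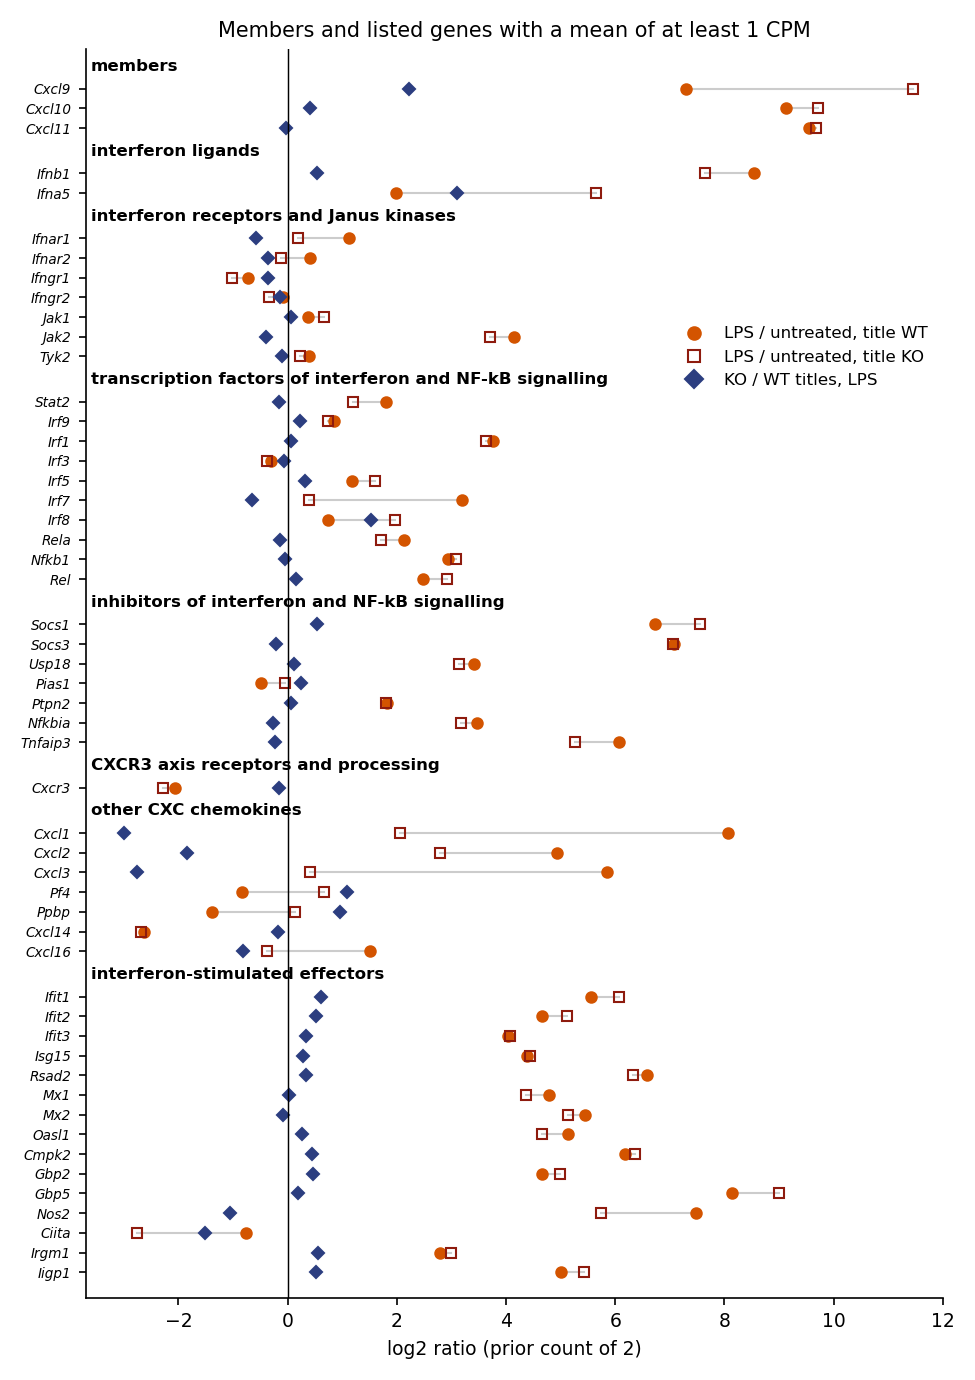
Log2 ratios (prior count of 2) of LPS over untreated in the WT-titled (circles) and KO-titled (squares) libraries and of KO over WT with LPS (diamonds), for the members and listed genes averaging 1 CPM or more. The diamonds of Cxcl10 (0.41) and Cxcl11 (-0.04) lie within the spread of those of the interferon-stimulated effectors, and the diamond of Cxcl9 lies to the right of all 15.

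The receptor side was low in these cells. Cxcr3, the receptor of the 3 chemokines, had 109 and 142 counts untreated and 19 and 16 with LPS, 4.94, 5.13, 1.11 and 0.980 CPM. It fell by 2.23 ± 0.45 on the log2 scale (edgeR, adjusted p = 0.0377), opposite to its ligands. The ratio was 0.224 (0.130 to 0.366) in WT and 0.191 (0.106 to 0.321) in KO. Ackr3, an atypical receptor of Cxcl11, had 1, 6, 1 and 0 counts. Dpp4, the protease that trims these chemokines, had 7, 7, 2 and 6, and the atypical receptor gene Ackr1 had 2 counts in WT and 0 elsewhere.

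Of 8 other CXC chemokines tested, 1 rose and 1 fell, near the 9.35% and 5.14% of all genes. Over the 7 with at least 1 CPM on average, the median log2 ratio with LPS was 1.51 in WT and 0.41 in KO. By the 2-fold rule, 4 of the 7 were called higher with LPS and 2 lower in WT, beside 15.4% and 15% of all genes. In KO, 2 were called higher and 1 lower, beside 14.6% and 17.8%. Cxcl1 and Cxcl3, called higher in WT, were under 1 CPM there without LPS. Cxcl2, a neutrophil attractant, stood at 5.22, 6.47, 162 and 45.1 CPM and rose by 3.90 ± 0.59 (edgeR, adjusted p = 0.0188). Between the LPS libraries it was 0.278 times as high in KO_LPS3 (0.256 to 0.302), the opposite direction to Cxcl9. Cxcl1, of the same ELR class, was at 0.181, 2.13, 74.5 and 9.24 CPM, 0.124 times as high in KO_LPS3 (0.104 to 0.147), with an LPS change of 4.73 ± 1.62 that did not pass (edgeR, adjusted p = 0.119). The transmembrane chemokine gene Cxcl16 was at 117, 248, 332 and 190 CPM, and Pf4, a platelet chemokine, at 106, 79.4, 59.5 and 126 CPM. Ppbp and Cxcl14 were called lower in WT, and Cxcl14 fell by 2.98 ± 0.60 (edgeR, adjusted p = 0.0377) from 51 and 58 counts to 5 and 4. Cxcl14 passed the filters through its untreated libraries, so its calls and p-value carry a limit like that given for Cxcl9 and Cxcl11. Of the summed FPKM of the 15 CXC genes, Cxcl10 made up 1.70% in WT, 1.47% in KO, 83.7% in WT_LPS3 and 86.6% in KO_LPS3. Cxcl9 made up 0.832 and 3.02% of it in the LPS libraries, and Cxcl11 1.61 and 1.22%.

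Genes with the most similar profile were ranked among 10814 protein-coding genes by the Euclidean distance between log2 CPM values centred on each gene's mean over the 4 libraries. Cxcl10 and Cxcl11 were each other's nearest, at a distance of 0.37. Next for both came Il6, a proinflammatory cytokine gene, at 0.50 and 0.38, then Il33, Gbp5 and Il12b. These distances depend on the prior count of 2, since Cxcl11 had 2 counts in each untreated library. With a prior count of 0.5 its log2 LPS ratios were 10.26 in WT and 10.48 in KO, beside 9.14 and 9.73 for Cxcl10. Il6, Il33 and Il12b, at 0 to 4 untreated counts, carry the same limit and reached 1 CPM on average through their LPS libraries. Cxcl9 was farther from every gene at the prior count of 2. Its distances rest on 6 and 0 untreated counts and carry the limit, too. With a prior count of 0.5 its log2 LPS ratio went from 7.30 to 7.61 in WT and from 11.46 to 13.46 in KO. Its nearest was Il33 at 1.35, followed by Tnn at 1.64, Cxcl10 at 1.79, Gbp5 at 1.88 and Cxcl11 at 2.05, and it stood 9 in the order of both other members. Tnn, the tenascin N gene, had 5 and 3 untreated counts and carries the same limit as Il6. In KO_LPS3, Tnn was 2.82 times its level in WT_LPS3 (2.59 to 3.08). Il33, a cytokine gene, was 1.39 times (1.29 to 1.50) and Il6 0.849 times (0.802 to 0.898).

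Markers of other cell types were read beside these results. Of 11 T and NK cell markers, 7 had at most 3 counts in each library, and Gzma had 0 in all. Their summed level was 29.9, 36.4, 55.6 and 62.3 CPM, of which Cd4 made up 29.3, 35.6, 52.3 and 56.0. Dendritic cell markers summed to 1.77, 2.28, 13.2 and 9.36 CPM, most of it in the LPS libraries from Xcr1. Fibroblast markers summed to 1.18, 1.08, 1.40 and 2.88 CPM, neutrophil markers to 3.58, 4.01, 10.5 and 3.18, and B cell markers to 0.227, 0.325, 0.233 and 0.184. Endothelial markers, led by Pecam1 and Kdr, summed to 76.4, 100.05, 72.6 and 62.8 CPM. The T and NK cell and dendritic sums were higher in both LPS libraries, as the chemokines were, and their part in the result was not tested. In CPM, Cd4 and Lck were higher with LPS in both titles, Lck at 1, 11, 53 and 98 counts. Cd3e, Cd3d, Cd3g, Cd8a, Nkg7, Ncr1, Klrb1c, Gzma and Prf1 had 0 to 5 counts in each library. Of the dendritic markers only Xcr1 rose, at 10, 25, 221 and 144 counts. Zbtb46 (19, 16, 1 and 4 counts) and Clec9a (7, 11, 1 and 2) fell. Flt3 (3, 9, 3 and 3) and Siglech (0, 2, 0 and 0) did not rise. Between the LPS libraries, the T and NK cell and fibroblast sums were higher in KO_LPS3, as Cxcl9 was, and the dendritic, neutrophil, B cell and endothelial sums were lower. Within the endothelial list the genes were divided, with Pecam1 2.61 times as high in KO_LPS3 (2.27 to 3.01), Cdh5 1.17 times (0.793 to 1.73) and Kdr 0.305 times (0.265 to 0.350). The part of these markers in the difference between the titles was not tested either.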

How the data were processed

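The submitters' processing notes name the HISAT2 2.0.5 aligner and the mm10 genome. The deposited table held a read count per gene and library and the authors' FPKM, per the file headers. For each of 4 comparisons the deposited columns gave the log2 fold change with its raw and adjusted p-value. The FPKM of the authors used library sizes of 1.28, 1.20, 0.817 and 0.818 times the count totals. How reads were counted, whether by strand, and which test the authors ran is not stated in the labels. A further 8 per-sample columns were left out.

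Counts were scaled with edgeR 4.0.16 (TMM factors 1.25, 1.16, 0.820 and 0.840). With 1 library per group, pairs of libraries were compared by size, with exact binomial 95% intervals. For a printed ratio, 0 counts were set at 3, which is a convention and not the end of an interval. Effects common to the 4 libraries were tested with edgeR's quasi-likelihood test (treatment and title, SE from the F statistic), after a check on simulated counts. DESeq2 1.42.0 and limma 3.58.1 were alternatives. With 1 library per group, the p-values are not set against a spread between replicates. Their error is the departure from additive effects of treatment and title, which may be technical. An LPS response that differs between the titles counts as error. From each gene list up to 4 genes of largest mean CPM were named, plus those against their list's direction. From the profiles, 5 genes per member were named. The members and lists were chosen with earlier results of these data known. GENCODE M21 held 54409 of 54532 identifiers, with the 3 members at the same position. RefSeq promoters matched 2 of 3 members by symbol. The values of 1 listed transcription factor are not reported here, though the counts and medians of its list include it.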

Additional observations from a re-analysis of the deposited data

Results flagged for a closer look

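Cxcl9 moved in opposite directions between the titles without and with LPS. It had 6 counts in WT and 0 in KO untreated, and 994 in WT_LPS3 and 4429 in KO_LPS3, so that its log2 response to LPS was larger by 4.16 in the KO-titled pair. With the untreated libraries exchanged between the titles, the pairing that the Lyz1 counts would give, the difference was 0.29 (-1.71 to 2.29). By title it was 2.32 with FPKM and 5.85 with a prior count of 0.5. With 1 library per group this difference was not tested. Its untreated side rests on 6 reads.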

How the results depend on the processing

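Of 106 values of the members under alternatives, 98 kept their direction and their side of the rule, interval or threshold, and 3, on FPKM, kept a direction and have no interval. With the untreated library of the other title, the difference of the LPS response was 0.29 for Cxcl9 and 0.24 for Cxcl10, with intervals that include 0, and reversed to -0.19 for Cxcl11. Cxcl9 in KO against WT untreated was -0.12 on log2 FPKM with a pseudocount of 1, no longer called, and its title effect reversed to -1.41 with DESeq2 (SE 2.92); the cause was not tested. The adjusted p of the LPS effect on Cxcl9 ran from 4.15e-26 without a filter to 0.0112, and was 2.60e-06 with the titles of the LPS libraries exchanged, 0.000965 with DESeq2 and 0.0111 with limma-voom.

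Of 32 alternative counts, 23 stayed within 1.5 times. With FPKM, calls with LPS went from 3747 to 2269 in WT and from 3992 to 2279 in KO, and calls for KO against WT from 639 to 229 untreated and from 1014 to 370 with LPS. Without a filter on the mean, KO against WT untreated had 1157 calls. Genes passing the test for LPS went from 2027 to 3797 without a filter, 7713 with the titles of the LPS libraries exchanged and 4485 with treatment alone, and those for title from 0 to 2 without a filter. The share of calls that were higher also moved. It was 50.7% in WT and 45.0% in KO with LPS and 60.9% for KO against WT untreated. It became 66.5, 64.1 and 69.4% with FPKM, and 22.2, 22.6 and 48.4% with library totals, which set the median gene at -0.62 and -0.54 with LPS.

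Replicates could not be paired because each group has 1 library and the titles carry no replicate numbers. Libraries were matched by title alone, as a term of the model, and leaving out a library would empty a group. Depth limits the untreated values of Cxcl9 and Cxcl11, which rest on 0 to 6 counts.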
